A study of Homo sapiens with 36 samples.

Results

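The comparison described here is between mantle cell lymphoma lines with high and with low measured RNA of CCND1, the gene of cyclin D1. It covers the genes of the panel other than CCND1. GRANTA519, JVM2, MAVER1 and MINO, each above 1000 CPM (counts scaled to library size) of CCND1, form the high-CCND1 group. JEKO1, REC1, SP49, SP53 and UPN1, each below 100 CPM, form the low-CCND1 group. These 9 lines are 9 of the 36 human lymphoma cell lines in the series, and the other 27 belong to neither group. The groups were chosen by the measured CCND1 values, so the CCND1 levels are a description and carry no test. The labels name no treatment, and lysates were plated at 10000 cells per well with each line run as a single well. There is 1 library per line, so the spread within a group is the spread between lines and includes technical error. The labels give the line names and no diagnosis. That the 9 lines are models of mantle cell lymphoma is background knowledge of the lines. JVM2 is known to have been raised from a B-prolymphocytic leukaemia with the same translocation. GRANTA519 and JVM2, both in the high-CCND1 group, are known to carry Epstein-Barr virus.

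Mantle cell lymphoma is a cancer of mature B cells in which a translocation usually places CCND1, on chromosome 11, beside the immunoglobulin heavy chain locus on chromosome 14. Cyclin D1 joins CDK4 or CDK6, and the complex phosphorylates the RB protein, which frees E2F factors to switch on genes of DNA replication. CCND2 and CCND3 encode sister proteins that bind the same kinases, and the INK4 and CIP/KIP inhibitors restrain them. NF-kB signalling, through the canonical and the alternative route, is a further pathway for which mantle cell lines are known to differ.

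Library totals in the 9 lines ran from 9240086 counts in JVM2 to 12472040 in SP53. The TMM factor, which corrects each library for its composition, averaged 0.808 ± 0.143 in high-CCND1 lines and 1.15 ± 0.159 in low-CCND1 lines (SD, n = 4 and 5). This difference of -0.34 had p = 0.0238 in a two-sided exact permutation test, or 0.0952 adjusted over 4 technical measures. The groups overlapped, since MINO at 0.993 lay above JEKO1 at 0.918. The main counts, CCL5, CCND2 and several list medians are also given with the log2 of this factor as a covariate. Values of other genes are given without it. Total counts, the number of genes above the control probes and the highest control probe had exact permutation p of 0.198, 0.0556 and 0.524. The highest control probe of a library lay between 0.443 and 4.07 CPM, with the highest value in REC1, and genes below about that level cannot be told from background. REC1 also stood apart in several genes described below. B-cell markers were present in every line. MS4A1, the B-cell surface antigen CD20, ranged between 339 and 2580 CPM in high-CCND1 lines and between 79.1 and 728 CPM in low-CCND1 lines.

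CCND1 (chr11:69641087-69654474, GRCh38) had 2771 CPM in GRANTA519, 2051 in JVM2, 24021 in MAVER1 and 13374 in MINO, against 8.77 in JEKO1, 91.2 in REC1, 27.4 in SP49, 7.90 in SP53 and 13.0 in UPN1. The lines nearest to the limits of the groups were JVM2 on the high side and REC1 on the low side. Counting error was small beside these gaps, since the exact 95% Poisson interval of the lowest value but 1, in JEKO1, ran from 6.95 to 10.9 CPM. The other 27 lines had a median of 16.6 CPM and a highest value of 270 CPM. The low-CCND1 lines therefore lay in the range of the lymphoma lines outside both groups, although they are known as cyclin D1 lines. The part of the transcript that the CCND1 probe reads is not given in the sources used here. Whether the low readings cover all CCND1 RNA of these lines was therefore not tested, and cyclin D1 protein was not measured here. In MAVER1 and MINO, CCND1 took 1.58% and 1.33% of all counts of the library, and leaving it out of the library sizes did not change which gene passed the test.

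Of 2549 panel genes, 2124 reached 10 CPM in at least 4 of the 9 lines and were tested, and 425 were not tested. At an adjusted p under 0.05 in edgeR's quasi-likelihood test with Benjamini-Hochberg adjustment, 1 gene was called, which is 0.0471% of those tested. That gene was CCL5, and it was higher in the high-CCND1 lines. No gene was called lower. At an unadjusted p under 0.05, 186 genes (8.76%) were higher and 89 (4.19%) lower. With the log2 TMM factor as a covariate, 0 genes were called and 146 had an unadjusted p under 0.05, against 275 without it. The DESeq2 Wald test, with the same filter and no covariate, called 48 (2.26%) higher and 15 (0.706%) lower. MINO weighed most on the count, since without it 16 genes were called higher and 1 lower. Without JVM2, and likewise without SP53, 2 genes were called higher, and without UPN1 1 was called lower, COL27A1. Log2 fold changes, here always high-CCND1 over low-CCND1 lines, were positive for 1198 genes and negative for 926, with a median of 0.13. In 51 genes, 2.40% of those tested, every high-CCND1 line lay above every low-CCND1 line, and in 25 genes, 1.18%, every high-CCND1 line lay below every low-CCND1 line. CPM are not corrected for probe or transcript, so levels are compared between lines and not between genes. In these bulk lysates, fewer cells with a transcript and less transcript per cell cannot be told apart.

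CCL5 (chr17:35871491-35880793), a chemokine that draws T cells and monocytes and a known NF-kB and interferon target, had 287 CPM in GRANTA519, 954 in JVM2, 604 in MAVER1 and 194 in MINO, against 6.90 in JEKO1, 24.2 in REC1, 17.4 in SP49, 21.9 in SP53 and 21.4 in UPN1. The lowest high-CCND1 line, MINO, lay far above the highest low-CCND1 line, REC1. On the log2 scale CCL5 averaged 8.72 ± 1.04 in high-CCND1 lines and 4.09 ± 0.73 in low-CCND1 lines (SD, n = 4 and 5). Its log2 fold change was 4.79 ± 0.60 (SE), a 27.7-fold difference, with an edgeR adjusted p of 0.00634. The call held without any 1 line, with log2 fold changes between 4.30 and 5.06, and without GRANTA519 and JVM2 together, at 4.44 with an edgeR adjusted p of 0.0357. With the log2 TMM factor as a covariate the fold change was 5.20 and the edgeR adjusted p was 0.398. The other 27 lines had a median of 34.5 CPM and a range of 1.47 to 723 CPM, so high CCL5 was not particular to lines with high CCND1.

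Among the cyclins that can stand beside cyclin D1, CCND2 (chr12:4273772-4305350) separated the groups without overlap and CCND3 did not. CCND2 had 181 CPM in GRANTA519, 3474 in JVM2, 162 in MAVER1 and 329 in MINO, against 11.5 in JEKO1, 16.0 in REC1, 21.6 in SP49, 34.1 in SP53 and 24.6 in UPN1. All 4 high-CCND1 lines lay above all 5 low-CCND1 lines, and JVM2 lay about as high as the highest of the other 27 lines, at 3388 CPM. The log2 fold change was 5.59 ± 0.97, and the edgeR adjusted p of 0.0868 missed the threshold. CCND2 passed edgeR's test only where JVM2 or MINO was left out. Without JVM2 the log2 fold change was 3.38 with an edgeR adjusted p of 0.0368, and without MINO it was 5.88 with 0.0334. Without any other single line, the edgeR adjusted p of CCND2 lay between 0.0522, without MAVER1, and 0.309, without REC1. Without GRANTA519 and JVM2 together the log2 fold change was 3.51 with 0.0802. With the log2 TMM factor as a covariate it was 6.79 with an edgeR adjusted p of 0.621.

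CCND3 ranged between 96.3 and 258 CPM in high-CCND1 lines and between 76.9 and 174 CPM in low-CCND1 lines, and its log2 fold change was 0.25 ± 0.44. CDK4, the kinase partner of the D-type cyclins, ranged between 488 and 1346 CPM in high-CCND1 lines and between 477 and 1973 CPM in low-CCND1 lines, with a log2 fold change of -0.10 ± 0.51. CDK6, its sister kinase, had 208 CPM in JVM2 and 34.7 to 35.3 CPM in the other 3 high-CCND1 lines, against 6.25 to 80.2 CPM in low-CCND1 lines. The groups overlapped for CCND3, CDK4 and CDK6, and none of these passed the test.

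**Figure D1:**
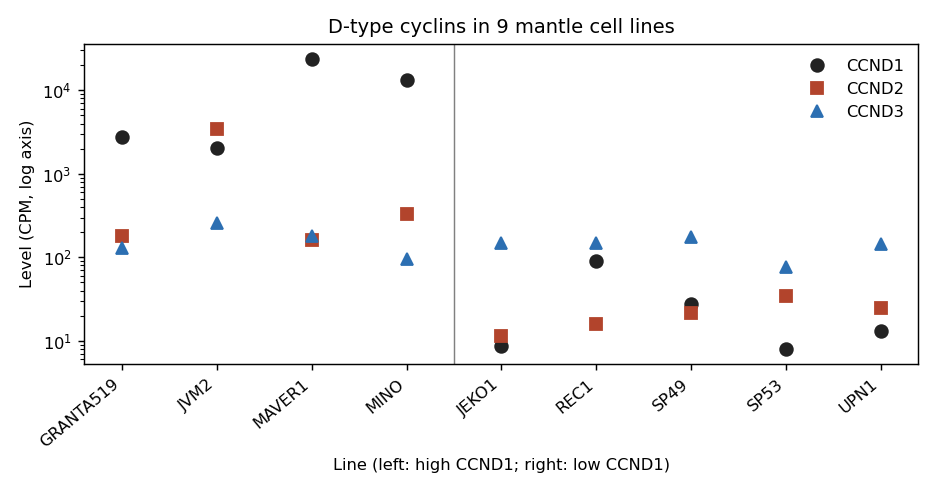
Levels of CCND1, CCND2 and CCND3 (CPM, log axis) in the 4 high-CCND1 lines, left of the grey line, and the 5 low-CCND1 lines, right of it, with 1 point per line and gene. CCND1 chose the groups, CCND2 is higher in each high-CCND1 line than in any low-CCND1 line, and CCND3 overlaps. Levels of different genes are not on a common scale.

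The inhibitors of these kinases differed between single lines and overlapped between the groups, and 0 of 6 tested members passed the test. CDKN1A, the CIP/KIP inhibitor p21 and a p53 target, had 757 CPM in GRANTA519, 3695 in JVM2, 897 in MAVER1 and 954 in MINO, against 949 in JEKO1, 8.86 in REC1, 238 in SP49, 170 in SP53 and 200 in UPN1. JEKO1 lay inside the range of the high-CCND1 lines, and the log2 fold change was 2.33 ± 0.93 with an edgeR adjusted p of 0.331. CDKN2A, which encodes the INK4 inhibitor p16 and the p53 regulator ARF, had 1.80 CPM in GRANTA519, 13.7 in JVM2, 0.293 in MAVER1 and 292 in MINO, against 134 in JEKO1, 3.05 in REC1, 0.386 in SP49, 0.664 in SP53 and 128 in UPN1. It was thus near the control probes in lines of both groups. CDKN2B, the neighbouring INK4 gene, was too low to be tested and had no count in GRANTA519, a high-CCND1 line, and in SP53, a low-CCND1 line. A count of 0 allows up to 0.386 CPM in GRANTA519 and 0.221 CPM in SP53, from counting error alone. CDKN2C, the INK4 inhibitor p18, had 13.5 CPM in JVM2 and 167 to 268 CPM in the other high-CCND1 lines, against 1.16 CPM in UPN1 and 85.0 to 374 CPM in the other low-CCND1 lines. UPN1 was also at 2.12 CPM for RB1, the target of the cyclin D kinases, against 204 to 1823 CPM in the other low-CCND1 lines, while high-CCND1 lines had 351 to 1520 CPM. CDKN1B, CDKN1C and CDKN2D, the other inhibitors tested, had log2 fold changes of 0.49, -1.88 and -0.78, and their groups overlapped.

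No gene of the lists downstream of the cyclin D kinases was called, and most replication genes had a negative log2 fold change. Of 13 tested genes of replication and nucleotide supply, 12 had a negative log2 fold change, beside 926 of all 2124 genes tested. The median of the 13 was -0.47 beside 0.13 over all genes tested, and 0 of them were called. PCNA, the sliding clamp of DNA polymerase, had 1818, 1677, 1175 and 1260 CPM in GRANTA519, JVM2, MAVER1 and MINO, against 2218, 2565, 2679, 2345 and 2110 CPM in JEKO1, REC1, SP49, SP53 and UPN1. Every high-CCND1 line lay below every low-CCND1 line, yet the log2 fold change of -0.68 ± 0.32 had an edgeR adjusted p of 0.384. RRM2, a subunit of ribonucleotide reductase, and MCM7, of the replicative helicase, had log2 fold changes of -0.80 ± 0.44 and -0.95 ± 0.68. RB family and E2F genes had a median of -0.22 over 7 tested genes, and E2F1, a factor that RB holds back, had 30.6 to 211 CPM in high-CCND1 lines and 112 to 413 CPM in low-CCND1 lines. The 6 E-type cyclin and CDK2 genes had a median of -0.30, and CDC25A, a phosphatase that activates CDK2, had a log2 fold change of -1.26 ± 0.52. Mitotic kinases and markers had 8 positive and 8 negative fold changes among 16 tested genes and a median of 0.01. None of these genes passed the test.

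CCND1's neighbours on 11q13 did not share its split. Of 6 measured neighbours 3 were tested, and 0 were called. FADD, an adaptor of death receptors, ranged between 357 and 1393 CPM in high-CCND1 lines and between 252 and 628 CPM in low-CCND1 lines, with a log2 fold change of 0.61 ± 0.49. LRP5, a WNT co-receptor, had a log2 fold change of -0.33 ± 0.60. GSTP1, a glutathione transferase, had 2478 to 12657 CPM in high-CCND1 lines, against 22.1 CPM in REC1 and 1734 to 5458 CPM in the other low-CCND1 lines. The growth factors FGF19, FGF4 and FGF3 stayed at or below 7.00 CPM in high-CCND1 lines and 13.4 CPM in low-CCND1 lines and were not tested.

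Genes were ranked in each direction by p among those whose groups did not overlap, and besides CCL5 the genes named by this ranking did not pass edgeR's test over all 9 lines. After CCL5 and CCND2 came TNFRSF14, MLLT3, STAT5A, CSF1, PMAIP1, IL2RG, RIPK2 and ABCC4, with log2 fold changes between 1.82 and 3.61 and edgeR adjusted p between 0.15 and 0.179. The DESeq2 Wald test called these 8, beside 2.26% of all genes tested called higher. It used the counts that ranked them, so its calls are no separate support. Without MINO edgeR's adjusted p was 0.0451 for TNFRSF14, 0.0334 for MLLT3 and 0.048 for STAT5A. TNFRSF14 (chr1:2555639-2565382), the HVEM receptor that binds LIGHT and BTLA, had 523 CPM in GRANTA519, 1754 in JVM2, 1130 in MAVER1 and 526 in MINO, against 183 in JEKO1, 125 in REC1, 315 in SP49, 244 in SP53 and 119 in UPN1. STAT5A, a transcription factor of cytokine signalling, had 58.6, 602, 108 and 40.3 CPM in GRANTA519, JVM2, MAVER1 and MINO, against 8.55, 30.1, 10.2, 12.6 and 21.2 CPM in JEKO1, REC1, SP49, SP53 and UPN1. JVM2 was the highest of the 9 lines for both. MLLT3, a chromatin reader of the super elongation complex, had 23.7 to 237 CPM in high-CCND1 lines and 6.03 to 18.4 CPM in low-CCND1 lines. CSF1, the growth factor of macrophages, had 85.5 to 289 CPM in high-CCND1 lines and 14.0 to 65.4 CPM in low-CCND1 lines. In the other 27 lines CSF1 had a median of 6.85 CPM and a highest value of 162 CPM, above GRANTA519 and MINO. IL2RG, the shared gamma chain of cytokine receptors, had 1063 to 2974 CPM in high-CCND1 lines and 322 to 840 CPM in low-CCND1 lines. RIPK2, a kinase that carries NOD signals to NF-kB, had 181 to 945 CPM in high-CCND1 lines and 51.4 to 159 CPM in low-CCND1 lines. ABCC4, a transporter of organic anions and drugs, had 190 to 550 CPM in high-CCND1 lines and 32.4 to 107 CPM in low-CCND1 lines.

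In the other direction the ranking named COL27A1, JPH3, CTSV, CDH3, VIPR1, NTF3, MYCL, SMO, NANOG and APBB1, with log2 fold changes between -4.60 and -1.16. In edgeR's test 0 of these passed. The DESeq2 Wald test called 8 of the 10, all but MYCL and NANOG, beside 0.706% of all genes tested called lower. Its calls again rest on the counts that ranked these genes, so they are no separate support. COL27A1 (a fibrillar collagen gene) had 2.19 CPM in GRANTA519, 2.07 in JVM2, 1.90 in MAVER1 and 1.49 in MINO, against 13.9 in JEKO1, 91.8 in REC1, 57.3 in SP49, 62.5 in SP53 and 6.56 in UPN1. Its log2 fold change was -4.60 ± 0.84 with an edgeR adjusted p of 0.0868, and without UPN1 it was -4.88 with 0.019. The high-CCND1 values were near the control probes, so the size of this difference rests on few counts. COL27A1 also passed the filter on low values through the low-CCND1 lines alone, which fixes the direction of its difference. The same holds for 5 of these 10 genes, COL27A1, JPH3, CDH3, VIPR1 and MYCL. It holds for 7 of the 25 genes with every high-CCND1 line below, beside 23 of all 2124 genes tested, and 0 genes passed through the high-CCND1 lines alone. SMO, the signal transducer of the Hedgehog pathway, had 6.81 to 31.5 CPM in high-CCND1 lines and 33.3 to 109 CPM in low-CCND1 lines. NANOG, a pluripotency factor whose reads can be shared with its processed pseudogenes, had 99.2 to 140 CPM in high-CCND1 lines and 185 to 441 CPM in low-CCND1 lines. Of the 25 genes with every high-CCND1 line below, 14 stayed under 50 CPM in all 9 lines, beside 379 of all 2124 tested genes (17.8%).

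**Figure D2:**
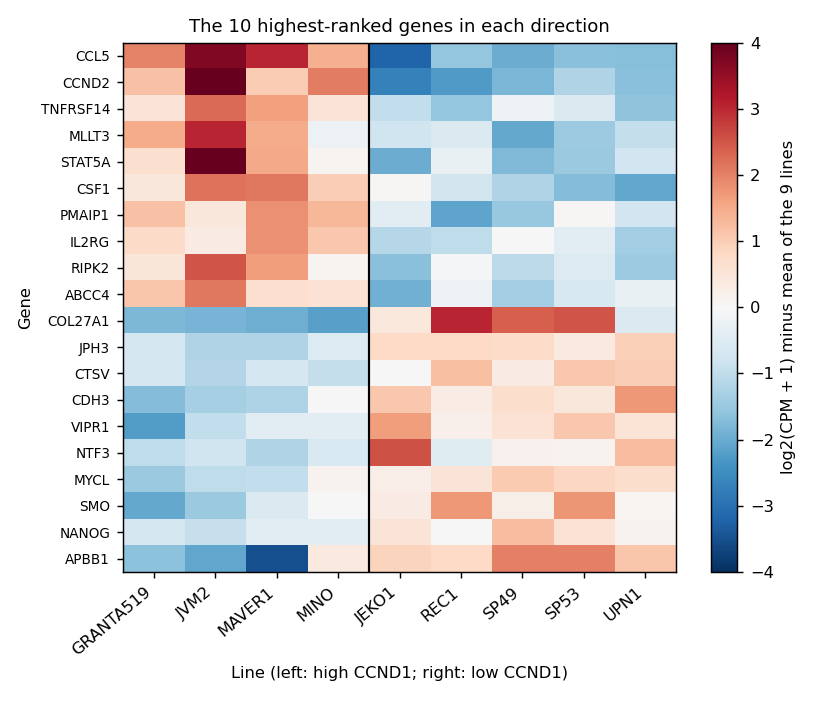
The 10 highest-ranked genes in each direction (rows) in the 9 lines (columns; high-CCND1 lines left of the black line), as log2(CPM + 1) minus the gene's mean over the 9 lines, with colours ending at -4 and 4. Genes were ranked among those whose groups do not overlap, so the split itself is built in, and CCL5 alone passed the test. JVM2 holds the darkest red cells.

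NF-kB is a family of transcription factors held in the cytoplasm by inhibitors, many of which are themselves NF-kB targets. Of 17 tested NF-kB subunits and regulators, 5 were higher at an unadjusted p under 0.05 and 0 lower, beside 8.76% and 4.19% of all genes tested, and the median log2 fold change was 0.60 beside 0.13 over all genes tested. None was called. NFKBIA, the inhibitor IkB-alpha, had 494, 754, 1145 and 509 CPM in GRANTA519, JVM2, MAVER1 and MINO, against 159, 203, 221, 427 and 164 CPM in JEKO1, REC1, SP49, SP53 and UPN1. The groups did not overlap, and the log2 fold change was 1.63 ± 0.43 with an edgeR adjusted p of 0.202. NFKBIE, the inhibitor IkB-epsilon, had 1038 to 3005 CPM in high-CCND1 lines and 117 to 983 CPM in low-CCND1 lines. TNFAIP3, the ubiquitin-editing inhibitor A20, had 1568 CPM in GRANTA519, 2059 in JVM2, 1590 in MAVER1 and 218 in MINO, against 176 in JEKO1, 241 in REC1, 110 in SP49, 273 in SP53 and 45.0 in UPN1. MINO thus fell among the low-CCND1 lines. NFKB2, the p100 precursor of the alternative route, showed the same arrangement, with 872, 1198 and 1196 CPM in GRANTA519, JVM2 and MAVER1 and 273 CPM in MINO, against 70.4 to 367 CPM in low-CCND1 lines. Without MINO, TNFAIP3 passed, at a log2 fold change of 3.37 with an edgeR adjusted p of 0.0303, against 3.01 with 0.15 over all 9 lines. This pass is no separate support, since MINO is the line that goes against the split. TRAF3, which marks the NF-kB inducing kinase for degradation, was at 0.879 CPM in MAVER1 and 223 to 281 CPM in the other high-CCND1 lines, against 81.2 to 378 CPM in low-CCND1 lines. With the log2 TMM factor as a covariate, the median of the regulators less that of all genes was -0.11, against 0.47 without it.

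Among 28 tested NF-kB target genes, 23 had a positive fold change, beside 1198 of all 2124 genes tested, and the median was 1.15 beside 0.13. At an unadjusted p under 0.05, 10 were higher and 0 lower, beside 8.76% and 4.19% of all genes tested, and 1, CCL5, was called. LTA, the cytokine lymphotoxin-alpha, was the other member with every high-CCND1 line above, at 13.8, 175, 33.2 and 13.8 CPM in GRANTA519, JVM2, MAVER1 and MINO, against 1.64, 5.37, 7.42, 11.2 and 8.10 CPM in JEKO1, REC1, SP49, SP53 and UPN1. The edgeR adjusted p of LTA was 0.218. Every high-CCND1 line thus lay above in 2 of these 28 genes, beside 2.40% of all genes tested. CCL4, a chemokine of activated B cells, had 665 to 4852 CPM in high-CCND1 lines, against 885 CPM in SP53 and 15.3 to 72.3 CPM in the other low-CCND1 lines, and its log2 fold change was 3.45 ± 1.18. Without SP53, the low-CCND1 line that goes against the split, CCL4 was called too, which is no separate support. CCR7, the homing receptor to lymph nodes, had 403, 3287, 1303 and 761 CPM in GRANTA519, JVM2, MAVER1 and MINO, against 86.6, 209, 582, 232 and 92.4 CPM in JEKO1, REC1, SP49, SP53 and UPN1. SP49 lay above GRANTA519, so the groups overlapped. FAS, a death receptor, had 72.8 to 164 CPM in GRANTA519, JVM2 and MAVER1 and 8.08 CPM in MINO, against 6.13 to 20.6 CPM in low-CCND1 lines. Without GRANTA519 and JVM2, the median of the targets less that of all genes was 0.36, against 1.03 with them.

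Of the 2124 genes tested, 1097 had a promoter sequence in the RefSeq table used (GRCh38.p14, 250 bases before to 50 after the gene's start). The NF-kB consensus, searched as its 10-base form on both strands, was found in 14% of these 1097 promoters. It was found in 3 of 26 promoters (11.5%) of genes with every high-CCND1 line above, namely IL6ST, NFKBIA and TNFRSF14, and in 1 of 12 (8.33%) of genes with every high-CCND1 line below. The STAT palindrome TTCNNNGAA, searched on both strands like the next, occurred in 6.65% of all, in 0 of 26 and in 2 of 12 promoters of the same sets, and the interferon element core, GAAA repeated after any 2 bases, in 3.74%, in 0 of 26 and in 1 of 12. At these small numbers the differences in share were not tested. The promoters of NFKBIA (chr14:35404700-35404999, minus strand) and TNFRSF14 (chr1:2556121-2556420, plus strand) are shown because they are the best-separated NF-kB inhibitor and the highest-ranked receptor, with capitals for the bases that match the NF-kB consensus. RefSeq's start of TNFRSF14 lies inside the longer GENCODE span given above, so this stretch does too. In TNFRSF14 the capitals join 3 overlapping matches.
NFKBIA: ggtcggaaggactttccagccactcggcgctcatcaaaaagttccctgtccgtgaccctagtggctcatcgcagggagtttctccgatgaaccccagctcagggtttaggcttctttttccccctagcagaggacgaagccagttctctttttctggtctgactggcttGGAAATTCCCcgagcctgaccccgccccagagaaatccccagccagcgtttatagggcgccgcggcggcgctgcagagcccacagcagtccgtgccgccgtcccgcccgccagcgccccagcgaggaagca
TNFRSF14: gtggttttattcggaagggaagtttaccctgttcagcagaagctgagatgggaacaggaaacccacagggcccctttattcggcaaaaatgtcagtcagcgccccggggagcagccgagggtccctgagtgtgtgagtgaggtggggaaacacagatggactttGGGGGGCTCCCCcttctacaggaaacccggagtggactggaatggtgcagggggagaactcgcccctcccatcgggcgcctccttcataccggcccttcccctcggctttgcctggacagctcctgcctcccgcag

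**Figure D3:**
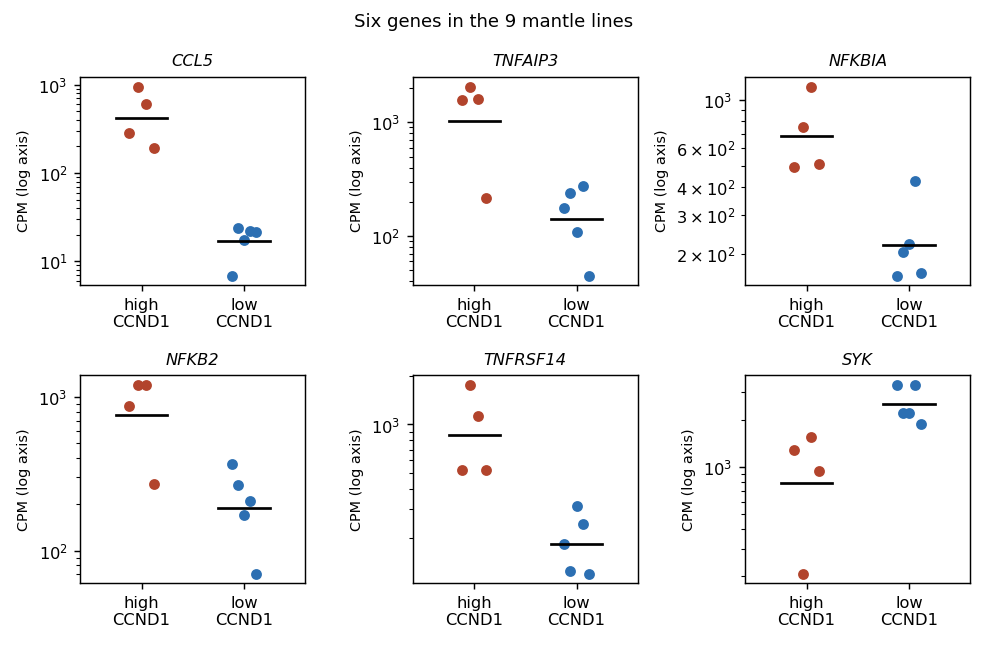
Levels (CPM, log axes) of CCL5, TNFAIP3, NFKBIA, NFKB2, TNFRSF14 and SYK in high-CCND1 lines (red, left in each panel) and low-CCND1 lines (blue, right), 1 point per line, with the geometric mean as a bar. MINO is the low red point for TNFAIP3 and NFKB2, and JVM2 is the low red point for SYK, the gene shown with every high-CCND1 line below.

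The interferon response had the largest median log2 fold change of the 29 gene lists, 2.37 over 15 tested genes beside 0.13 over all genes tested. Its 15 genes had a positive fold change each, beside 1198 of all 2124 genes tested. At an unadjusted p under 0.05, 10 were higher and 0 lower, beside 8.76% and 4.19% of all genes tested, but 0 were called and in 0 of them were the groups apart. JVM2 and MAVER1 were the highest 2 of the 9 lines for 10 of the 15 genes. ISG15, a ubiquitin-like protein induced by interferon, had 450, 2891, 5521 and 223 CPM in GRANTA519, JVM2, MAVER1 and MINO, against 328, 55.2, 326, 486 and 165 CPM in JEKO1, REC1, SP49, SP53 and UPN1. MX1, an antiviral GTPase, had 1995 CPM in JVM2 and 5708 in MAVER1 and stood at 28.3 CPM in GRANTA519 and 396 in MINO, against 127 to 311 CPM in low-CCND1 lines. GRANTA519 was thus the lowest of the 9 lines for MX1. The median of this list less that of all genes was 2.25 over the 9 lines, 1.08 without MAVER1 and 0.16 with the log2 TMM factor as a covariate.

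MHC class I genes, which present peptides to cytotoxic T cells, had a median log2 fold change of 1.94 over 6 tested genes, with 4 higher and 0 lower at an unadjusted p under 0.05, beside 8.76% and 4.19% of all genes tested, and 0 called. HLA-B had 25944, 22118, 28629 and 6480 CPM in GRANTA519, JVM2, MAVER1 and MINO, against 7106, 283, 7740, 7164 and 3210 CPM in JEKO1, REC1, SP49, SP53 and UPN1. HLA-E was likewise low in REC1, at 13.6 CPM. HLA genes are polymorphic and similar to each other, so a probe may read alleles unequally. TAP1, which carries peptides into the endoplasmic reticulum, had 470, 489, 823 and 133 CPM in GRANTA519, JVM2, MAVER1 and MINO, against 101, 53.3, 170, 111 and 80.0 CPM in JEKO1, REC1, SP49, SP53 and UPN1. MINO lay below SP49, and without MINO TAP1 passed, at a log2 fold change of 2.53 with an edgeR adjusted p of 0.0334. Leaving out the line that goes against the split favours a pass, so this is no separate support. The median of the list less that of all genes was 1.82, and 0.14 with the log2 TMM factor as a covariate.

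**Figure D4:**
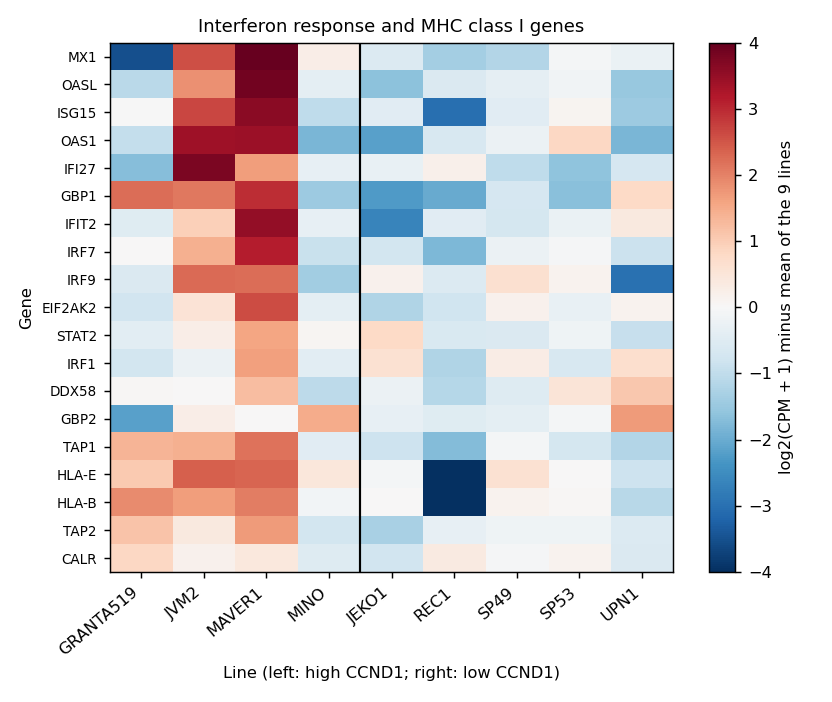
Interferon response and MHC class I genes (rows; 2 tested members are not drawn) in the 9 lines (columns; high-CCND1 lines left of the black line), as log2(CPM + 1) minus the gene's mean over the 9 lines, with colours ending at -4 and 4. JVM2 and MAVER1 are red for most interferon genes, MINO is not, and REC1 is deep blue for HLA-B and HLA-E.

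Of 15 tested BCL2 family genes, which regulate apoptosis, 0 were called. BCL2, the inhibitor of apoptosis for which the family is named, had 1266, 1085, 5016 and 1992 CPM in GRANTA519, JVM2, MAVER1 and MINO, against 1084, 373, 633, 647 and 43.2 CPM in JEKO1, REC1, SP49, SP53 and UPN1. JVM2 and JEKO1 were all but equal, and the log2 fold change was 2.07 ± 0.73. PMAIP1, the BH3-only protein NOXA that binds MCL1, had 1637, 1005, 2603 and 1817 CPM in GRANTA519, JVM2, MAVER1 and MINO, against 537, 168, 252, 747 and 428 CPM in JEKO1, REC1, SP49, SP53 and UPN1. Its log2 fold change was 2.05 ± 0.48 with an edgeR adjusted p of 0.15. BCL2L11, the BH3-only protein BIM, was at 0.464 CPM in MINO and 9.85 to 390 CPM in the other high-CCND1 lines, against 1.08 to 54.2 CPM in low-CCND1 lines. HRK, a further BH3-only protein, had 12.3 to 25.3 CPM in high-CCND1 lines and 23.1 to 269 CPM in low-CCND1 lines, with a log2 fold change of -2.56 ± 0.80. Of 14 tested p53 and target genes 12 had a positive fold change, beside 1198 of all 2124 genes tested. Their median was 0.69 beside 0.13 over all genes tested. In 1, the death receptor TNFRSF10B, every high-CCND1 line lay above every low-CCND1 line, beside 2.40% of all genes tested. Its edgeR adjusted p was 0.502.

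In the lists of costimulatory molecules, interleukin receptors and JAK-STAT genes, 0 genes were called. Costimulation and checkpoint ligands had a median log2 fold change of 1.13 over 10 tested genes, with 4 higher and 0 lower at an unadjusted p under 0.05, beside 8.76% and 4.19% of all genes tested. CD70, the ligand of CD27, had 737 to 1783 CPM in high-CCND1 lines and 320 to 986 CPM in low-CCND1 lines. CD274, the checkpoint ligand PD-L1, had 308 CPM in JVM2 and 32.4 to 68.8 CPM in the other high-CCND1 lines, against 1.42 CPM in JEKO1 and 21.1 to 44.5 CPM in the other low-CCND1 lines. IL6ST, the gp130 chain of the interleukin-6 receptor, had 475, 423, 426 and 192 CPM in GRANTA519, JVM2, MAVER1 and MINO, against 38.2, 29.8, 93.3, 181 and 119 CPM in JEKO1, REC1, SP49, SP53 and UPN1. IL10RA, a chain of the interleukin-10 receptor, split the low-CCND1 lines instead, with 144 to 270 CPM in high-CCND1 lines, against 1618, 2141 and 2441 CPM in REC1, SP49 and SP53 and 128 and 45.5 CPM in JEKO1 and UPN1. JAK-STAT genes had a median of 0.58 over 14 tested genes, and SOCS1, a feedback inhibitor of JAK kinases, had 122 to 2769 CPM in high-CCND1 lines and 29.7 to 472 CPM in low-CCND1 lines.

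Genes of B-cell identity and of antigen receptor signalling overlapped between the groups, with 2 exceptions. These were 1 of 13 tested activated B-cell and plasma cell genes, higher, and 1 of 16 tested B-cell receptor and PI3K signalling genes, lower. Over all genes tested, 2.40% were higher and 1.18% lower without overlap. IRF4, a factor of B-cell activation and plasma cell fate, had 714, 1425, 1630 and 1075 CPM in GRANTA519, JVM2, MAVER1 and MINO, against 662, 336, 638, 400 and 370 CPM in JEKO1, REC1, SP49, SP53 and UPN1, a log2 fold change of 1.33 ± 0.39 with an edgeR adjusted p of 0.244. SYK, the kinase that starts B-cell receptor signalling, had 1279, 208, 1562 and 945 CPM in GRANTA519, JVM2, MAVER1 and MINO, against 3353, 2230, 2212, 3338 and 1878 CPM in JEKO1, REC1, SP49, SP53 and UPN1. Its log2 fold change was -1.38 ± 0.51 with an edgeR adjusted p of 0.30. BTK, the kinase targeted by ibrutinib, had 287 to 1101 CPM in high-CCND1 lines and 360 to 545 CPM in low-CCND1 lines. SLAMF7, a plasma cell surface receptor, had 2356 CPM in JVM2 and 2.97 CPM in MINO, with GRANTA519 and MAVER1 between, against 2.41 to 108 CPM in low-CCND1 lines. Germinal centre genes had a median of -0.70 over 11 tested genes. MME, the surface enzyme CD10, had 9.96 to 49.9 CPM in high-CCND1 lines, against 471 and 412 CPM in JEKO1 and UPN1 and 32.1 to 58.9 CPM in the other low-CCND1 lines. The median of the germinal centre genes less that of all genes was -0.83, and without UPN1 it was -0.09, while without REC1 it was -0.16.

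Markers used to recognise mantle cells did not separate the groups. CD5, a surface antigen of mantle cells, had 11.3 CPM in GRANTA519, 1.94 in JVM2, 121 in MAVER1 and 211 in MINO, against 48.3 in JEKO1, 10.4 in REC1, 11.4 in SP49, 16.5 in SP53 and 12.5 in UPN1. It was near background in JVM2 and clearly present in MAVER1, MINO and JEKO1. FCER2, the antigen CD23 that mantle cells usually lack, had 2629 CPM in GRANTA519, 459 in JVM2, 1077 in MAVER1 and 7.33 in MINO, against 11.1 in JEKO1, 81.0 in REC1, 223 in SP49, 135 in SP53 and 11.7 in UPN1. Its log2 fold change was 3.50 ± 1.23 with an edgeR adjusted p of 0.275. LEF1, a WNT pathway factor more usual in chronic lymphocytic leukaemia, had 293 CPM in MAVER1 and 619 in MINO and 8.56 to 21.7 CPM in the other high-CCND1 lines, against 582 CPM in JEKO1, 144 in UPN1 and 16.8 to 40.8 CPM in the other low-CCND1 lines. CD38, an ectoenzyme of activated B cells, ranged between 106 and 1236 CPM in high-CCND1 lines and between 25.6 and 478 CPM in low-CCND1 lines.

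**Figure D5:**
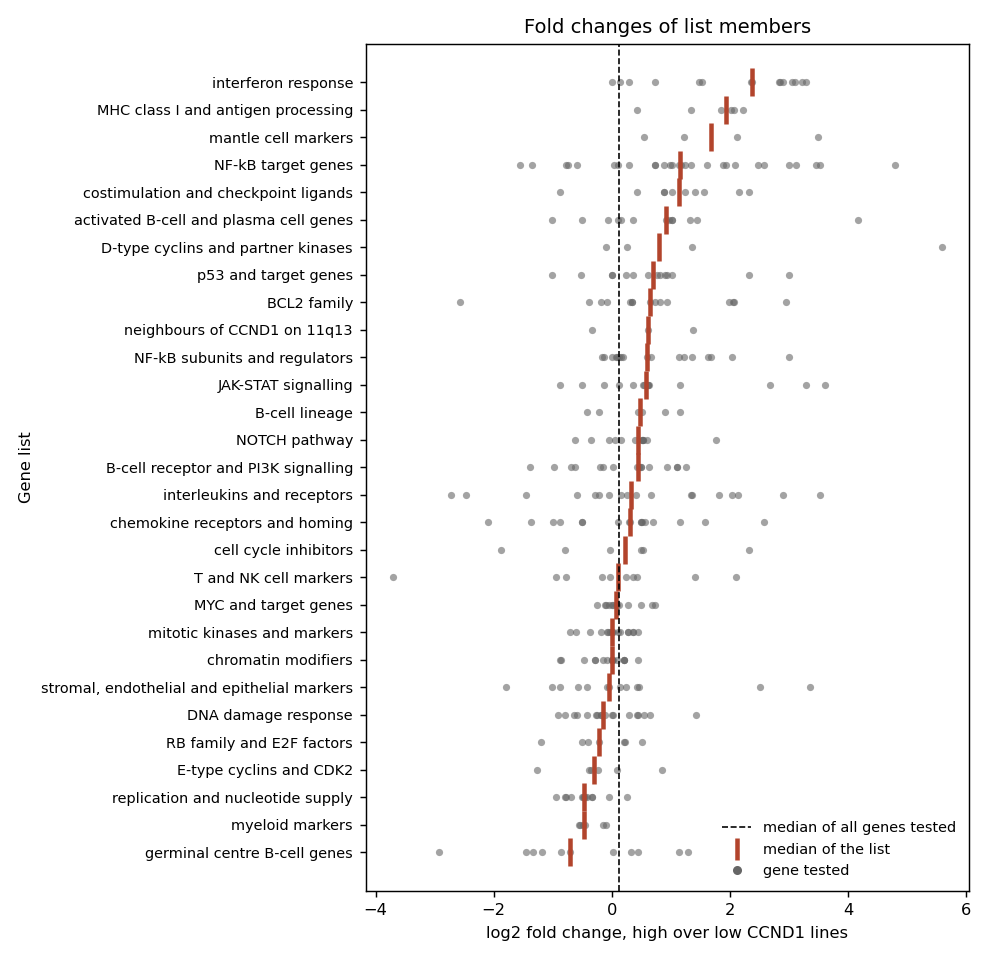
Log2 fold changes, high-CCND1 over low-CCND1 lines, of tested members (grey points) of 29 gene lists, with each list's median as a red bar and the median of all 2124 tested genes as a dashed line. Interferon response has the highest median, 2.37, and germinal centre genes the lowest, -0.70, while CCL5, among the NF-kB targets, is the only point that passed the test.

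The remaining lists held no called gene. Their median log2 fold changes were 0.92 for activated B-cell and plasma cell genes, 0.48 for B-cell lineage, 0.45 for the NOTCH pathway, 0.44 for B-cell receptor and PI3K signalling, 0.33 for interleukins and receptors, 0.31 for chemokine receptors and homing, 0.07 for MYC and target genes, 0.00 for chromatin modifiers and -0.15 for the DNA damage response. RBPJ, the DNA-binding factor of NOTCH signalling, had 393 to 419 CPM in high-CCND1 lines and 197 to 373 CPM in low-CCND1 lines. CXCR5, the receptor that guides B cells to follicles, had 72.2 to 767 CPM in high-CCND1 lines, against 24.7 CPM in UPN1 and 487 to 3178 CPM in the other low-CCND1 lines. CCR10, a homing receptor of plasma cells, had 31.6 to 69.4 CPM in high-CCND1 lines and 13.5 to 23.0 CPM in low-CCND1 lines.

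Markers of other cell types were summed per line. The 13 measured T and NK cell markers summed to between 251 and 609 CPM in high-CCND1 lines and between 100.5 and 678 CPM in low-CCND1 lines, and the highest sum held CD3D, a T-cell receptor subunit, at 490 CPM in REC1. The 11 myeloid markers summed to between 239.7 and 499 CPM in high-CCND1 lines and between 297 and 392 CPM in low-CCND1 lines. The 18 stromal, endothelial and epithelial markers summed to between 941 and 1762 CPM in high-CCND1 lines and between 889.5 and 1409 CPM in low-CCND1 lines, and much of it was keratins 8 and 18. Some markers were near background in every line, such as CSF1R, of macrophages, at most 7.33 CPM in high-CCND1 lines and 8.42 CPM in low-CCND1 lines, and KDR, of endothelium, at most 2.93 CPM in high-CCND1 lines and 3.77 CPM in low-CCND1 lines. Others were clearly present in some lines. ITGAM, an integrin of myeloid and NK cells, had 110 CPM in GRANTA519, 35.3 in JVM2, 51.8 in MAVER1 and 1.21 in MINO, against 1.61 to 5.66 CPM in low-CCND1 lines. PECAM1, CD68 and CDH1, markers of endothelium, macrophages and epithelium, reached 549, 304 and 50.4 CPM in high-CCND1 lines and 225, 312 and 207 CPM in low-CCND1 lines. ENG, of endothelium, reached 77.0 CPM in high-CCND1 lines and 23.6 CPM in low-CCND1 lines. COL1A1, a collagen of stromal cells, was at 314, 97.8, 197 and 23.3 CPM in GRANTA519, JVM2, MAVER1 and MINO, against 4.27, 23.4, 28.1, 6.64 and 14.5 CPM in JEKO1, REC1, SP49, SP53 and UPN1. PRF1, the pore protein perforin, had 25.4 to 259 CPM in high-CCND1 lines and 17.6 to 53.7 CPM in low-CCND1 lines. The part of any of these markers in the results was not tested.

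Likeness between the high-CCND1 lines was weak. Profiles were compared by Pearson's r over the 2124 tested genes after centring each gene, a description in which the points share libraries and scaling. The 6 pairs of high-CCND1 lines had a median r of 0.218, from -0.109 to 0.469, the 20 pairs across the groups a median of 0.0588, from -0.296 to 0.344, and the 10 pairs of low-CCND1 lines a median of 0.0885, from -0.0698 to 0.634. GRANTA519 and MAVER1 were each other's nearest of the 36 lines. MINO was nearest to SP53, at r = 0.21, followed closely by MAVER1, and JVM2 was nearest to HC_1, a line outside both groups. Among the low-CCND1 lines SP49 and SP53 were nearest to each other at r = 0.634, JEKO1 was nearest to RIVA and UPN1 to OCILY7. The next closest low-CCND1 pair, REC1 and SP49, was at 0.278, so SP49 and SP53 count for less than 2 separate profiles. With these 2 lines summed as 1, CCL5 was still called, at an edgeR adjusted p of 0.0341 against 0.00634. CCND2 then had 0.329 against 0.0868. The median SD of a gene between lines was 0.78 log2 units in high-CCND1 lines and 0.77 in low-CCND1 lines, and 160 genes in high-CCND1 lines and 79 in low-CCND1 lines had an SD above 2.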

How the data were processed

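Targeted RNA-Seq counts of 2549 genes and 10 control probes were measured in 36 lymphoma cell lines, 1 library each. Per the deposited table, the authors' counts are whole numbers per target with no scaling. The second deposited table holds log2 values that the authors made from the counts, equal to log2 of the count over 1 factor per library plus 1 within 0.00527. Per the submitters' processing notes the build was hg38. Aligner, counter, strand setting and any molecular identifiers were not given in the sources used here, so intervals cover counting error only.

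Columns were matched to lines through the sample number in the labels. CPM are counts over library size times the TMM factor (36 libraries, edgeR 4.0.16). Genes with at least 10 CPM in at least 4 of the 9 lines were tested by edgeR's quasi-likelihood test with Benjamini-Hochberg adjustment over all 2124. CCND1, which defined the groups, and the control probes were left out. SE is the fold change over the root of its F statistic. The self-test on simulated data ran with the same function. Named genes were those passing, filled to 10 per direction by p among genes whose groups did not overlap, plus all members of 4 lists and the 1 or 2 largest differences of each other list. Others were named after their values were seen, such as members with groups apart or a single line near background. The groups, 29 lists (486 genes) and tests were chosen with earlier results of these data known, and give no independent support. Of 2549 symbols, 2501 had 1 record in GENCODE 29. Alternatives were other scalings, filters and tests, the log2 TMM factor as a covariate, and leaving out lines, with DESeq2 1.42.0 and limma 3.58.1 in R 4.3.3. Summing SP49 and SP53 as 1 line was chosen after seeing the data. A few genes are not reported here by name, though list counts include them.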

Additional observations from a re-analysis of the deposited data

Results flagged for a closer look

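Of 168 values examined, 84 genes in each of the groups, 13 had 1 line set apart from the rest of its group by more than Dixon's 95% critical value, and chance flags about 1 in 20. The figure given is the gap to the nearest line over the group's whole range. In the high-CCND1 lines, JVM2 stood apart for CDK6 (208 CPM, 0.991), CDKN1A (3695 CPM, 0.854) and CDKN2C (13.5 CPM, 0.842), and MINO for TNFAIP3 (218 CPM, 0.879) and S100A8 (36.2 CPM, 0.927). In the low-CCND1 lines, REC1 stood apart for GSTP1 (22.1 CPM, 0.791), HLA-E (13.6 CPM, 0.783), EIF4E (33.5 CPM, 0.832) and FGF3 (13.4 CPM, 0.770). JEKO1 stood apart for CCL5 (6.90 CPM, 0.736) and CD274 (1.42 CPM, 0.777), SP53 for CCND3 (76.9 CPM, 0.771) and UPN1 for CDKN2C (1.16 CPM, 0.737).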

How the results depend on the processing

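The call of CCL5 was kept under every alternative run except the log2 TMM factor as a covariate, which left 0 genes called higher. The DESeq2 Wald test called 48 higher and 15 lower. Leaving out 1 line gave 1 to 16 genes higher and 0 to 1 lower, and log2 fold changes of CCND2 between 3.38 and 5.94. DESeq2 gave CCND2 no adjusted p. No named gene passed in the opposite direction under any alternative. For named genes, 676 of 688 fold changes kept their sign when 1 line was left out, and 969 of 997 under the other alternatives. The TMM factor difference was -0.40 to -0.29 with 1 line left out, where the exact permutation p was above 0.05 in 7 of 9 cases, and -0.33 with exact permutation p = 0.143 without GRANTA519 and JVM2. The median log2 fold change of all genes was 0.13, and -0.28 with upper-quartile factors, -0.40 with library size alone, 0.019 without a filter and 0.27 with a filter at 50 CPM, so list medians are given here less that of all genes. With the log2 TMM factor as a covariate they were 1.77 for D-type cyclins and partner kinases, -0.87 for mitotic genes, -0.54 for 11q13 neighbours, 0.50 for mantle cell markers, -0.40 for B-cell receptor signalling, -0.11 for NF-kB regulators, 0.16 for interferon response, 0.14 for MHC class I, 0.032 for the BCL2 family, -0.66 for DNA damage response, 0.75 for interleukins, -0.74 for chromatin modifiers, 1.30 for T and NK cell markers, 1.40 for myeloid markers and 0.0798 for stromal markers. With a filter at 50 CPM the D-type cyclin list was at -0.017 and the T and NK cell list at 1.49. Without GRANTA519 and JVM2 the D-type cyclin list was at 0.0151 and E-type cyclins at -1.51. Leaving out 1 line gave 0.0346 to 1.03 for D-type cyclins, -1.31 to -0.0866 for germinal centre genes, 1.08 to 2.62 for interferon response and -0.36 to 0.13 for stromal markers. The causes were not tested. No paired analysis was possible because the labels pair no high-CCND1 line with a low-CCND1 line. At 4 lines against 5, a difference that missed the threshold is not shown to be absent.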
